A study of Alligator mississippiensis with 4 samples.

Results

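The change between the bud stage (Es22) and the earlier placode stage (Es19) was examined in the dermis of the ventral overlapping scales of Alligator mississippiensis embryos. The members were the rows of the deposited expression table whose mean over the 2 ventral dermis libraries was at least 1 CPM (CPM are reads of a gene scaled to library size, as described below), which kept 10152 of 10466 rows and 2 of 4 libraries and left 314 rows below the filter. At that edge, FRMPD4 had a mean of 1.01 CPM and stood inside, while LRRC55 had a mean of 0.995 CPM and stood outside. The series studied gene expression in developing alligator scales, with 1 RNA-seq library for each of ventral and dorsal dermis at Es22 and at Es19. Both ventral groups were embryos from fertilized eggs that received no treatment, and nothing but the stage sets them apart in the labels. In both, dermis was freed of its epidermis before RNA was taken from the tissue, and the TruSeq RNA libraries were read from a single end. Each group is therefore 1 library of a mixed tissue, and how many embryos went into it is not stated. With 1 library a side there is no replicate error, so no p-value is given, every interval below covers counting error only, and a difference is between these libraries and not shown to be one between stages.

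In a developing scale, the dermis lies under an epidermal placode and exchanges WNT, BMP, FGF and Hedgehog signals with it while the placode is raised into a bud. Dermal fibroblasts then lay down the collagen fibres, microfibrils and small proteoglycans that give the skin its strength, and the same tissue holds blood vessels, blood cells, nerves, pigment cells and the edge of the muscle underneath. In birds and mammals, transcription factors such as the TWIST, MSX and Hox proteins mark dermis of particular regions. In bulk RNA, fewer cells of a type and less RNA per cell cannot be told apart.

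The table held 10722075 reads for the Es22 ventral library and 11581288 reads for the Es19 ventral library, so that 1 read was worth 0.103 CPM and 0.0679 CPM. Where 0 reads were counted, up to 3 could have been missed, which is 0.310 CPM at Es22 and 0.204 CPM at Es19. The CPM values carry a TMM factor, a correction of library size for differences in RNA composition, of 0.904 at Es22 and 1.27 at Es19. The composition did differ, since COL1A1 and COL1A2, the genes of type I collagen, took 31.0% of the reads at Es22 (95% exact binomial interval 30.9 to 31.0) and 10.98% at Es19 (10.97 to 11.001). Fibroblast genes of dermis were present in both libraries, with TWIST1, a transcription factor of dermal and other mesenchyme, at 261 CPM at Es22 and 203 CPM at Es19.

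A row was counted as higher or lower at Es22 when log2((Es22 + 1)/(Es19 + 1)) was at least 1 in size, which is called 2-fold here and understates the change of genes with low CPM. By this rule 568 rows (5.59%) were higher at Es22, 177 rows (1.74%) were lower and 9407 rows were neither. The median log2 difference over all 10152 rows was 0.01 and the quartiles of the rows were -0.22 and 0.29. In 403 of the higher rows (3.97% of all rows) and 107 of the lower rows (1.05%) the whole counting interval of the ratio lay beyond 2-fold, and 120 and 28 rows were at least 4-fold higher and lower. Just inside the 2-fold edge stood SYPL2, with 3.71 CPM at Es22 and 1.36 CPM at Es19, and just outside LGALS3, with 189 CPM at Es22 and 94.2 CPM at Es19. On the lower side SCNN1G stood inside, with 0.619 CPM at Es22 and 2.24 CPM at Es19, and S1PR1 outside, with 31.9 CPM at Es22 and 64.6 CPM at Es19. Without the TMM factors the median of all rows moved to -0.44 and the split of the calls turned to 297 higher and 621 lower rows, a share of higher calls of 32.4% in place of 76.2%. Directions below are therefore relative to the bulk of the rows. Of the 36 list medians described here, 20 changed their sign against 0 without the TMM factors. The balance of calls without them is given beside some lists only, and its absence does not mean that a list kept its balance.

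**Figure D1:**
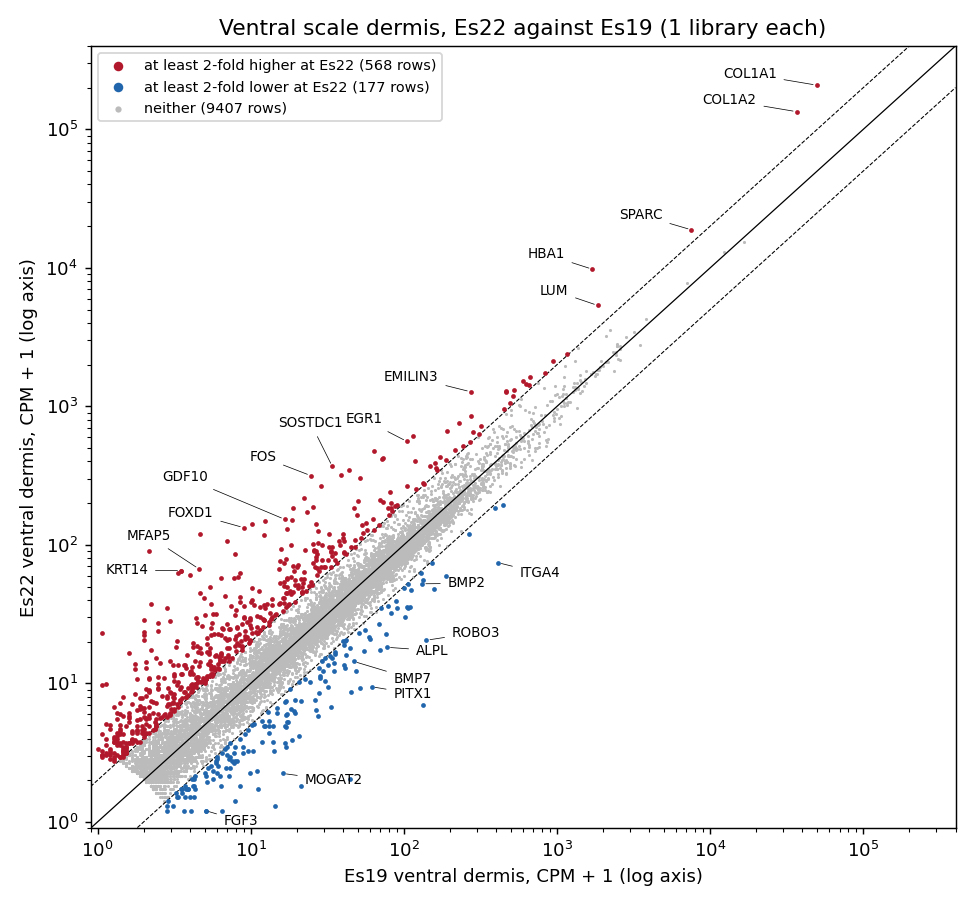
CPM + 1 of each of the 10152 rows in the Es22 ventral library (vertical log axis) and the Es19 ventral library (horizontal log axis), with red points at least 2-fold higher at Es22, blue points at least 2-fold lower and grey points neither. The solid line is equality and the dashed lines are 2-fold. COL1A1 and COL1A2 stand at the top right, and the 568 red points outnumber the 177 blue ones.

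The rows with a gene symbol that stood farthest above the line belonged to genes of several tissues. TMEM108, a transmembrane protein gene, had 62.01 CPM at Es22, against 2.37 CPM at Es19, a ratio of 26.1 (18.6 to 37.8, 95% interval). The copine gene CPNE9 had 27.8 CPM at Es22, against 1.02 CPM at Es19, and FAM180B had 34.05 CPM, against 1.83 CPM. CXCL14, a chemokine made in skin, had 105 CPM at Es22, against 6.04 CPM at Es19, a ratio of 17.4 (13.99 to 21.8, 95% interval). The other rows among the 15 farthest above were the forkhead factor FOXD1, the microfibril gene MFAP5, the collagen gene COL19A1, the keratin gene KRT14, the immediate-early genes EGR4, FOS and FOSB, and the muscle genes CASQ1, CKM, MYOZ1 and TPM1. For TPM1, a tropomyosin, 1 of its 2 rows had 36.3 CPM at Es22 and 1.22 CPM at Es19 and the other 7.02 CPM at Es22 and 10.1 CPM at Es19, so its value depends on which row is read.

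Among the 15 rows farthest below the line, MOGAT2, an enzyme of triglyceride synthesis, had 1.24 CPM at Es22, against 15.2 CPM at Es19, which is 12.3-fold (6.89 to 24.1, 95% interval) lower at Es22. ROBO3, a receptor of the Robo family that steers axons, had 19.5 CPM at Es22, against 139 CPM at Es19, 7.15-fold (6.16 to 8.34, 95% interval) lower. PITX1, a homeobox factor known in birds and mammals for hindlimb identity, had 8.46 CPM at Es22, against 60.6 CPM at Es19, 7.16-fold (5.71 to 9.09, 95% interval) lower. All these counting intervals lay wholly beyond 2-fold. The integrin gene ITGA4 had 73.5 CPM at Es22, against 409.8 CPM at Es19, the largest CPM at Es19 among these 15 rows. ARG2, a mitochondrial arginase, had 8.25 CPM at Es22, against 50.8 CPM at Es19. The other rows here were those of MAP1LC3C, TRPV4, ADD2, TMEM121, STC1, CHST1, CHIA, SLC8A3, LUZP2 and 1 of the 2 rows of ITGA9. TRPV4, a cation channel, rested on 4 reads at Es22 and 101 reads at Es19, and its interval was wide, at 16.6-fold (6.29 to 62.1, 95% interval) lower. For ITGA9 that row had 7.74 CPM at Es22 and 44.5 CPM at Es19, while its other row had 18.1 CPM at Es22 and 14.1 CPM at Es19.

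The type I collagen chains had the highest CPM of the collagen genes in both libraries and were higher at Es22. COL1A1, which encodes the alpha 1 chain of type I collagen, had 208400 CPM at Es22, against 49609 CPM at Es19, a ratio of 4.20 (4.19 to 4.21, 95% interval). COL1A2, the other chain of the same fibre, had 134093 CPM at Es22, against 36703 CPM at Es19, a ratio of 3.65 (3.64 to 3.67, 95% interval). Together they made up 256181 of the 312624 CPM by which all the higher rows exceeded their Es19 values. These ratios and sums carry the TMM factors of 0.904 at Es22 and 1.27 at Es19, and are larger than without them. As a share of all reads, COL1A1 and COL1A2 together stood at 31.0% at Es22 and 10.98% at Es19. COL21A1, a collagen that attaches to fibres, had 1272 CPM at Es22, against 466 CPM at Es19. COL23A1, a transmembrane collagen, had 48.3 CPM at Es22, against 4.41 CPM at Es19, a ratio of 10.9 (8.43 to 14.4, 95% interval). COL8A2, a network collagen, was the 1 member on the lower side, with 3.92 CPM at Es22, against 12.96 CPM at Es19. Of 33 collagen genes listed, 20 had a row and 19 passed the filter. The list's median log2 difference was 0.79, beside 0.01 for all rows. Of the 19, 4 were higher (21.1%), 1 lower (5.26%) and 14 neither, beside 5.59% higher and 1.74% lower of all rows. Among those that were neither, COL6A2 had 3543 CPM at Es22 and 2232 CPM at Es19, and COL5A1, a chain that is built into type I fibres, had 1955 CPM at Es22 and 1131 CPM at Es19. COL19A1, a basement membrane zone collagen outside that list, had 53.4 CPM at Es22, against 3.46 CPM at Es19 over its 2 rows, a ratio of 15.4 (11.6 to 21.02, 95% interval).

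Some genes whose products fold, trim and organize collagen were also higher at Es22. SPARC, a collagen-binding protein of the matrix, had 18808 CPM at Es22, against 7549.7 CPM at Es19, a ratio of 2.49 (2.47 to 2.51, 95% interval). PLOD1, a lysyl hydroxylase, had 1181 CPM at Es22, against 518 CPM at Es19, and PCOLCE, which speeds the removal of the procollagen C end, had 726 CPM, against 317 CPM. ADAMTS3, a protease that removes the procollagen N end, had 265 CPM at Es22, against 104 CPM at Es19. FKBP10, a chaperone of procollagen in the endoplasmic reticulum, was just short of the rule, with 1469 CPM at Es22 and 749 CPM at Es19. In all, 4 of the 20 members tested were higher (20%, beside 5.59% of all rows) and 0 were lower. Of the 20, 19 lay above 0, with a median of 0.71. No member stayed 2-fold higher without the TMM factors (0 of 20) and 1 was lower. The median was then 0.22, above the -0.44 of all rows.

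Of the small leucine-rich proteoglycans and their neighbours, which bind collagen fibrils and set their width, 5 of 11 were higher at Es22. That is 45.5%, beside 5.59% of all rows. None (0) were lower, and the median was 0.94. Lumican (LUM) had 5351 CPM at Es22, against 1844 CPM at Es19, a ratio of 2.90 (2.86 to 2.94, 95% interval). Osteoglycin (OGN) had 759 CPM at Es22, against 228 CPM at Es19, and ECM2 had 853 CPM, against 274 CPM. The other higher members were PRELP, with 1512 CPM at Es22 and 601 CPM at Es19, and dermatopontin (DPT), a small protein that binds decorin, with 210.5 CPM at Es22 and 68.4 CPM at Es19. The summed level of the list was 9250 CPM at Es22 and 3457 CPM at Es19, in which lumican was the main part.

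The genes of elastic fibres and microfibrils had 4 of 16 members higher (25%, beside 5.59% of all rows), 0 lower and a median of 0.42. Without the TMM factors 2 were higher and 1 lower, with a median of -0.07. MFAP5, a glycoprotein of microfibrils, had 66.03 CPM at Es22, against 3.60 CPM at Es19, a ratio of 18.4 (13.9 to 24.8, 95% interval), and was the farthest from equality of any matrix gene named here. EMILIN3, of the emilin family of matrix proteins, had 1273 CPM at Es22, against 272 CPM at Es19, a ratio of 4.67 (4.51 to 4.84, 95% interval). The fibrillins, which form the microfibrils themselves, were higher by smaller ratios. FBN1 had 1625 CPM at Es22, against 664 CPM at Es19, and FBN2 had 2369 CPM, against 1167 CPM. LTBP4, which holds latent TGF-beta on microfibrils, had 686 CPM at Es22 and 523 CPM at Es19 and met neither side of the rule.

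Other matrix glycoproteins were mixed, with 4 of 22 higher and 2 lower at Es22 and a median of 0.42. These are shares of 18.2% and 9.09%, beside 5.59% and 1.74% of all rows. Without the TMM factors 3 were higher and 5 lower, with a median of -0.07. CTGF, a growth factor binding matricellular protein, had 126 CPM at Es22, against 26.4 CPM at Es19, a ratio of 4.77 (4.25 to 5.36, 95% interval). FREM1, a protein of the basement membrane between epidermis and dermis, had 142 CPM at Es22, against 41.4 CPM at Es19 over its 2 rows. Thrombospondin 2 (THBS2) had 55.4 CPM at Es22, against 20.2 CPM at Es19. The laminins did not go one way. LAMA1, the laminin chain of early embryonic basement membranes, had 194 CPM at Es22, against 441 CPM at Es19, 2.28-fold (2.16 to 2.397, 95% interval) lower, while LAMA4, a chain of vessel basement membranes, had 717 CPM at Es22 and 414 CPM at Es19 and LAMB1 1337 CPM and 1093 CPM, which were neither. Of the 15 hyaluronan and proteoglycan genes, 0 were higher and 0 lower, with a median of 0.06, and versican (VCAN) had 1397 CPM at Es22 and 966 CPM at Es19. In that list 0 were higher and 1 was lower without the TMM factors, with a median of -0.41.

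Matrix proteases and their inhibitors had 6 of 25 members higher and 1 lower, with a median of 0.40. These are shares of 24% and 4%, beside 5.59% and 1.74% of all rows. MMP14, a collagenase held in the cell membrane, had 956 CPM at Es22, against 451 CPM at Es19, a ratio of 2.12 (2.05 to 2.19, 95% interval). Cathepsin K (CTSK), a lysosomal collagenase, had 649 CPM at Es22, against 280.2 CPM at Es19, and the serine protease gene HTRA3 had 433 CPM, against 172 CPM. ADAMTS17, ADAMTS4 and MMP16 were the other higher members, with ratios between 2.32 and 2.65. PLAT, the tissue plasminogen activator, was the lower member, with 35.1 CPM at Es22, against 77.2 CPM at Es19. All 6 higher members fell short of 2-fold without the TMM factors (0 of 25 higher), so their calls rest on the scaling, as do those of the collagen processing genes. Without the factors 3 members were lower and the median was -0.09, above the -0.44 of all rows.

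**Figure D2:**
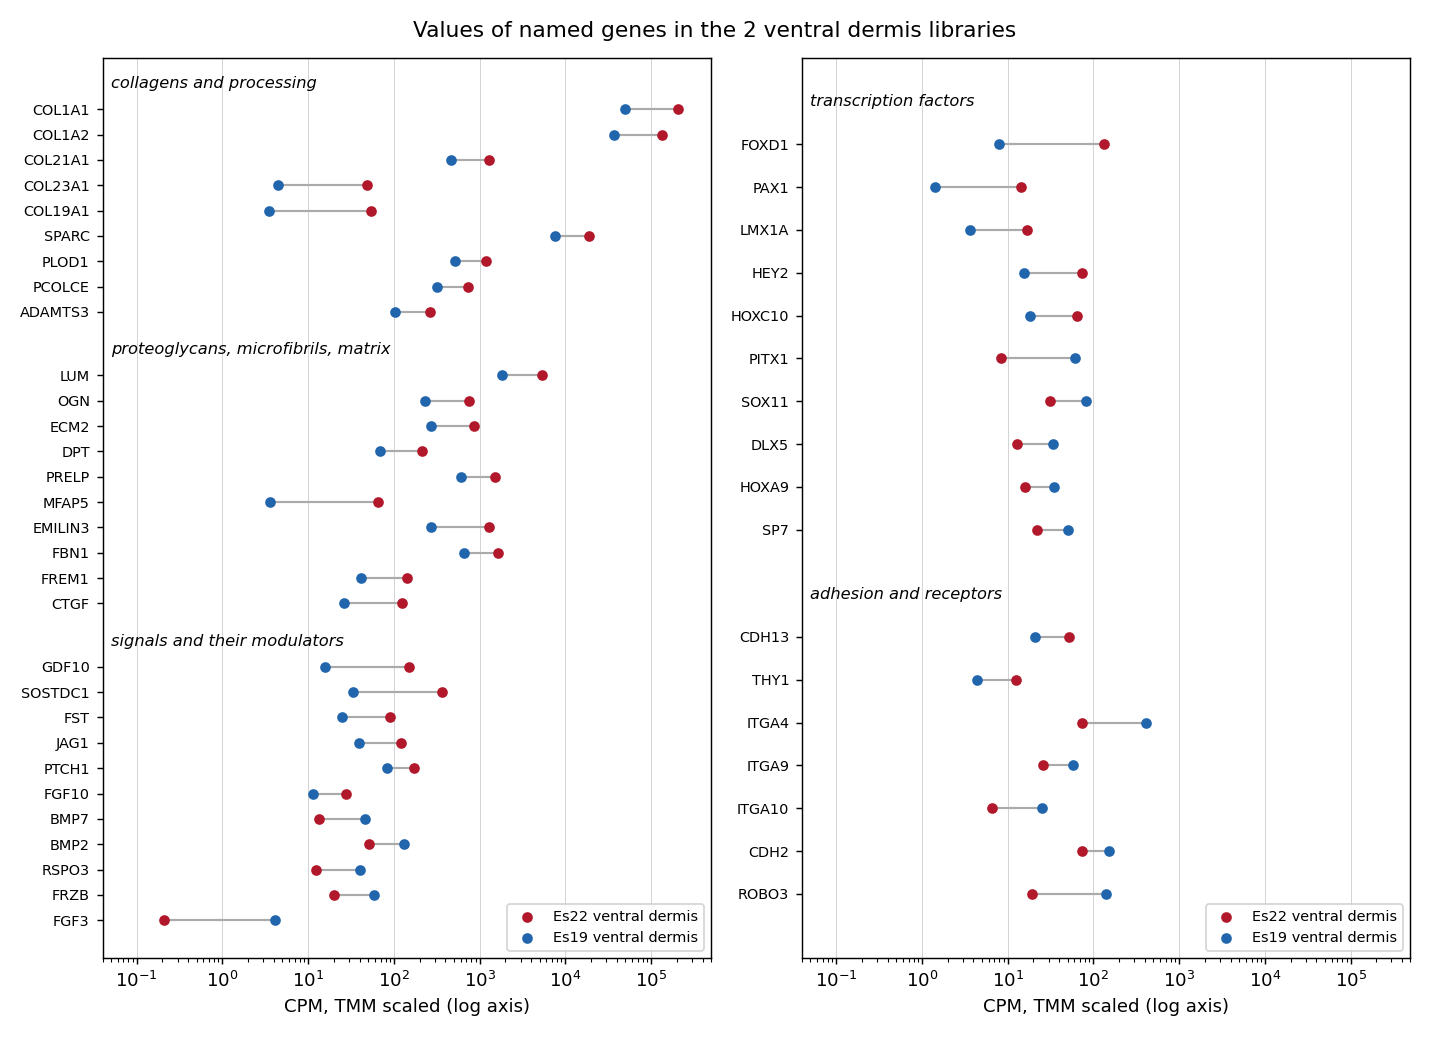
CPM (horizontal log axis) of named matrix, signalling, transcription factor and adhesion genes in the Es22 ventral library (red) and the Es19 ventral library (blue), 1 library each, with a grey line joining the values of a gene. The matrix genes drawn were all called higher and so have Es22 to the right of Es19. Matrix genes called lower, such as COL8A2 and LAMA1, are not drawn. The signalling, transcription factor and adhesion genes drawn lie on both sides, with FOXD1 at 132 CPM at Es22 and 8.01 CPM at Es19. PITX1 is at 8.46 CPM at Es22 and 60.6 CPM at Es19.

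Among signals, the BMP and TGF-beta genes had 5 of 28 members higher and 4 lower, shares of 17.9% and 14.3% beside 5.59% and 1.74% of all rows. The split turned to 3 higher and 8 lower without the TMM factors. The lower members were BMP ligands and 1 antagonist. BMP2 had 51.4 CPM at Es22, against 131 CPM at Es19, 2.55-fold (2.31 to 2.82, 95% interval) lower. BMP7 had 13.4 CPM at Es22, against 46.1 CPM at Es19, 3.44-fold (2.84 to 4.18, 95% interval) lower. BMP8A had 4.23 CPM at Es22, against 16.5 CPM at Es19, and NOG, which encodes the BMP antagonist noggin, had 1.24 CPM, against 4.003 CPM. Another ligand, BMP6, stood on the other side, with 10.01 CPM at Es22, against 3.39 CPM at Es19. GDF10, a TGF-beta family ligand, had 152 CPM at Es22, against 15.7 CPM at Es19, a ratio of 9.69 (8.43 to 11.2, 95% interval). Follistatin (FST), which binds activins and some BMPs, had 90.8 CPM at Es22, against 24.8 CPM at Es19, a ratio of 3.67 (3.24 to 4.15, 95% interval). The receptor gene TGFBR2 had 111 CPM at Es22, against 51.2 CPM at Es19, and myostatin (MSTN), a ligand best known from muscle, had 13.4 CPM, against 3.32 CPM. ID2, a transcriptional target of BMP signals, had 90.2 CPM at Es22 and 139 CPM at Es19, a log2 difference of -0.62, and was neither.

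The WNT genes had 5 of 42 members higher, 3 lower and a median of 0.26, and those farthest from equality were modulators. These are shares of 11.9% and 7.14% beside 5.59% and 1.74% of all rows, and without the TMM factors 3 were higher and 6 lower, with a median of -0.21. SOSTDC1, a secreted inhibitor of WNT and BMP signals, had 367 CPM at Es22, against 33.1 CPM at Es19, a ratio of 11.1 (10.1 to 12.2, 95% interval). SFRP1, a secreted Frizzled-related inhibitor, had 191 CPM at Es22, against 89.8 CPM at Es19, and the other higher members, SFRP4, LGR6 and FZD9, stood below 20 CPM in both libraries. SFRP4, with 5.57 CPM at Es22 and 0.882 CPM at Es19, and LGR6, with 3.92 CPM and 0.950 CPM, passed the filter only through Es22. With a mean of at least 5 CPM, 3 WNT members were higher and 3 lower. The same counts had the whole counting interval beyond 2-fold. On the lower side stood the R-spondins, which strengthen WNT signals. RSPO3 had 12.5 CPM at Es22, against 39.9 CPM at Es19, 3.20-fold (2.62 to 3.92, 95% interval) lower, and RSPO1 had 12.5 CPM, against 31.01 CPM. FRZB, another secreted Frizzled-related inhibitor, had 19.8 CPM at Es22, against 58.7 CPM at Es19. The ligands with the highest CPM were neither, with WNT11 at 609 CPM at Es22 and 762 CPM at Es19 and WNT5A at 439.7 CPM at Es22 and 253 CPM at Es19. The gene of beta-catenin (CTNNB1), which the study followed in tissue, had no row under that symbol in the table analysed here, nor had SHH or TNC.

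Of 21 FGF genes, 1 was higher and 1 lower, or 4.76% each beside 5.59% and 1.74% of all rows, with a median of 0.10, so the share of higher members was near that of all rows. The counts were 0 higher and 3 lower without the TMM factors. FGF10, a ligand that mesenchyme sends to epithelium, had 27.8 CPM at Es22, against 11.3 CPM at Es19, a ratio of 2.46 (2.02 to 3.01, 95% interval). FGF3 was at 2 reads at Es22, against 60 reads at Es19, or 0.206 CPM and 4.07 CPM, 19.7-fold (5.23 to 167, 95% interval) lower. It passed the filter only through its Es19 value. ETV1, a factor induced by FGF signals, had 84.5 CPM at Es22 and 44.4 CPM at Es19 and was neither.

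The Hedgehog genes had 2 of 10 members higher and 0 lower, beside 5.59% and 1.74% of all rows, with a median of 0.23. Without the TMM factors 1 was higher and 2 were lower. PTCH1, a receptor of Hedgehog ligands that is itself a target of the pathway, had 174 CPM at Es22, against 82.3 CPM at Es19, a ratio of 2.11 (1.96 to 2.28, 95% interval) whose interval reached below 2-fold. SCUBE2, a secreted protein that releases Hedgehog ligands from cells, had 10.6 CPM at Es22, against 2.58 CPM at Es19. GLI2, a transcription factor of the pathway, had 323 CPM at Es22 and 287 CPM at Es19. CDON, a co-receptor, had 324 CPM at Es22 and 465 CPM at Es19 and was neither.

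In the Notch list, 3 of 9 members (33.3%) were higher and 0 lower, beside 5.59% and 1.74% of all rows, with a median of 0.50. JAG1, a ligand of Notch receptors, had 119.8 CPM at Es22, against 39.2 CPM at Es19, a ratio of 3.05 (2.76 to 3.38, 95% interval). Its pathway's target HEY2 had 72.9 CPM at Es22, against 15.5 CPM at Es19, a ratio of 4.71 (4.06 to 5.50, 95% interval), and the related HEY1 had 10.7 CPM, against 4.68 CPM. The receptor NOTCH2 had 353 CPM at Es22 and 289 CPM at Es19 and was neither, as was HES4, with 162 CPM at Es22 and 85.97 CPM at Es19.

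Retinoic acid genes had 3 of 10 members higher (30%, beside 5.59% of all rows) and 0 lower, while the median of the list was -0.06. The higher members include enzymes of its synthesis. RDH10, which oxidizes retinol, had 139.6 CPM at Es22, against 25.8 CPM at Es19, a ratio of 5.41 (4.83 to 6.08, 95% interval). ALDH1A3, which makes retinoic acid from retinal, had 84.5 CPM at Es22, against 26.2 CPM at Es19, a ratio of 3.23 (2.85 to 3.65, 95% interval). TGM2, a transglutaminase that retinoic acid induces in other species, had 37.9 CPM at Es22, against 18.4 CPM at Es19. DHRS3, which turns retinal back to retinol, had 116 CPM at Es22 and 60.7 CPM at Es19 and was neither.

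Among 16 IGF genes, 2 were higher and 2 lower, or 12.5% each beside 5.59% and 1.74% of all rows, and without the TMM factors 1 was higher and 4 were lower. IGFBP7, a binding protein also made by vessels, had 77.9 CPM at Es22, against 15.9 CPM at Es19, a ratio of 4.91 (4.23 to 5.71, 95% interval). STC1, a secreted inhibitor of an IGFBP protease, had 2.89 CPM at Es22, against 17.7 CPM at Es19, 6.13-fold (4.14 to 9.41, 95% interval) lower, and PAPPA2, such a protease, had 14.1 CPM, against 32.8 CPM. Of 34 guidance genes 0 were higher and 2 lower (5.88%, beside 1.74% of all rows), which were ROBO3 and RGMA. RGMA, a repulsive guidance molecule that also acts as a BMP co-receptor, had 38.4 CPM at Es22, against 88.4 CPM at Es19.

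Transcription factors of dermis and body region had 9 of 59 members higher and 3 lower, with a median of 0.31. These are shares of 15.3% and 5.08%, beside 5.59% and 1.74% of all rows. Without the TMM factors 5 were higher and 10 lower. FOXD1, a forkhead factor of mesenchyme, had 132 CPM at Es22, against 8.01 CPM at Es19, a ratio of 16.5 (13.7 to 20.1, 95% interval). PAX1, a paired-box factor known from the sclerotome, had 14.3 CPM at Es22, against 1.42 CPM at Es19, a ratio of 10.1 (6.33 to 16.8, 95% interval). LMX1A had 17.02 CPM at Es22, against 3.66 CPM at Es19, and its relative LMX1B, which sets dorsal identity in the limb of birds and mammals, had 24.7 CPM, against 9.97 CPM. TFAP2C, an AP-2 factor also made by epidermis, had 16.9 CPM at Es22, against 4.41 CPM at Es19. With PITX1, the lower members were SOX11, a factor of immature mesenchyme and neurons, and DLX5, a homeobox factor of limb and bone. SOX11 had 31.5 CPM at Es22, against 81.2 CPM at Es19, 2.58-fold (2.27 to 2.94, 95% interval) lower, and DLX5 had 13.00 CPM, against 33.9 CPM. The members with the highest CPM were neither, among them ZEB2, with 905 CPM at Es22 and 654 CPM at Es19, and SNAI2, with 328 CPM at Es22 and 178 CPM at Es19, both factors of the mesenchymal state.

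Of 19 Hox genes, which carry position along the body axis, 2 were higher and 2 lower at Es22, and the median was -0.16. That is 10.5% each way, beside 5.59% and 1.74% of all rows. HOXC10 had 63.97 CPM at Es22, against 18.2 CPM at Es19, a ratio of 3.52 (3.04 to 4.07, 95% interval). HOXC13, known from hair and nail in mammals, had 20 reads at Es22 and 1 read at Es19, or 2.06 CPM and 0.0679 CPM, a ratio of 30.4 (4.86 to 1260.4, 95% interval). With a mean of 1.07 CPM it passed the filter only through its Es22 value, so its call is weak. HOXA9 had 15.9 CPM at Es22, against 34.4 CPM at Es19, and HOXA11 had 1.75 CPM, against 6.58 CPM. The members with the highest mean CPM, HOXA7, HOXD9, HOXA2 and HOXB3, were neither, with log2 differences from -0.41 to 0.33.

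Adhesion genes differed in both directions, with 8 of 30 higher and 6 lower (26.7% and 20.0%, beside 5.59% and 1.74% of all rows), and 2 higher and 8 lower without the TMM factors. ITGA4, an integrin subunit that binds fibronectin and VCAM1, was 5.58-fold (5.16 to 6.04, 95% interval) lower at Es22, with its values given above. ITGA10, a collagen-binding integrin subunit of cartilage, had 6.60 CPM at Es22, against 25.2 CPM at Es19, and ITGA9 over its 2 rows had 25.8 CPM, against 58.6 CPM. N-cadherin (CDH2) had 72.8 CPM at Es22, against 151 CPM at Es19, 2.07-fold (1.90 to 2.26, 95% interval) lower. The higher members included other cadherins. CDH13 had 51.8 CPM at Es22, against 21.04 CPM at Es19, CDH8 had 43.02 CPM, against 17.4 CPM, and THY1, a fibroblast surface protein, had 12.5 CPM, against 4.41 CPM. ITGB1, the beta subunit shared by many integrins, had 1629.8 CPM at Es22 and 1117 CPM at Es19 and was neither.

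**Figure D3:**
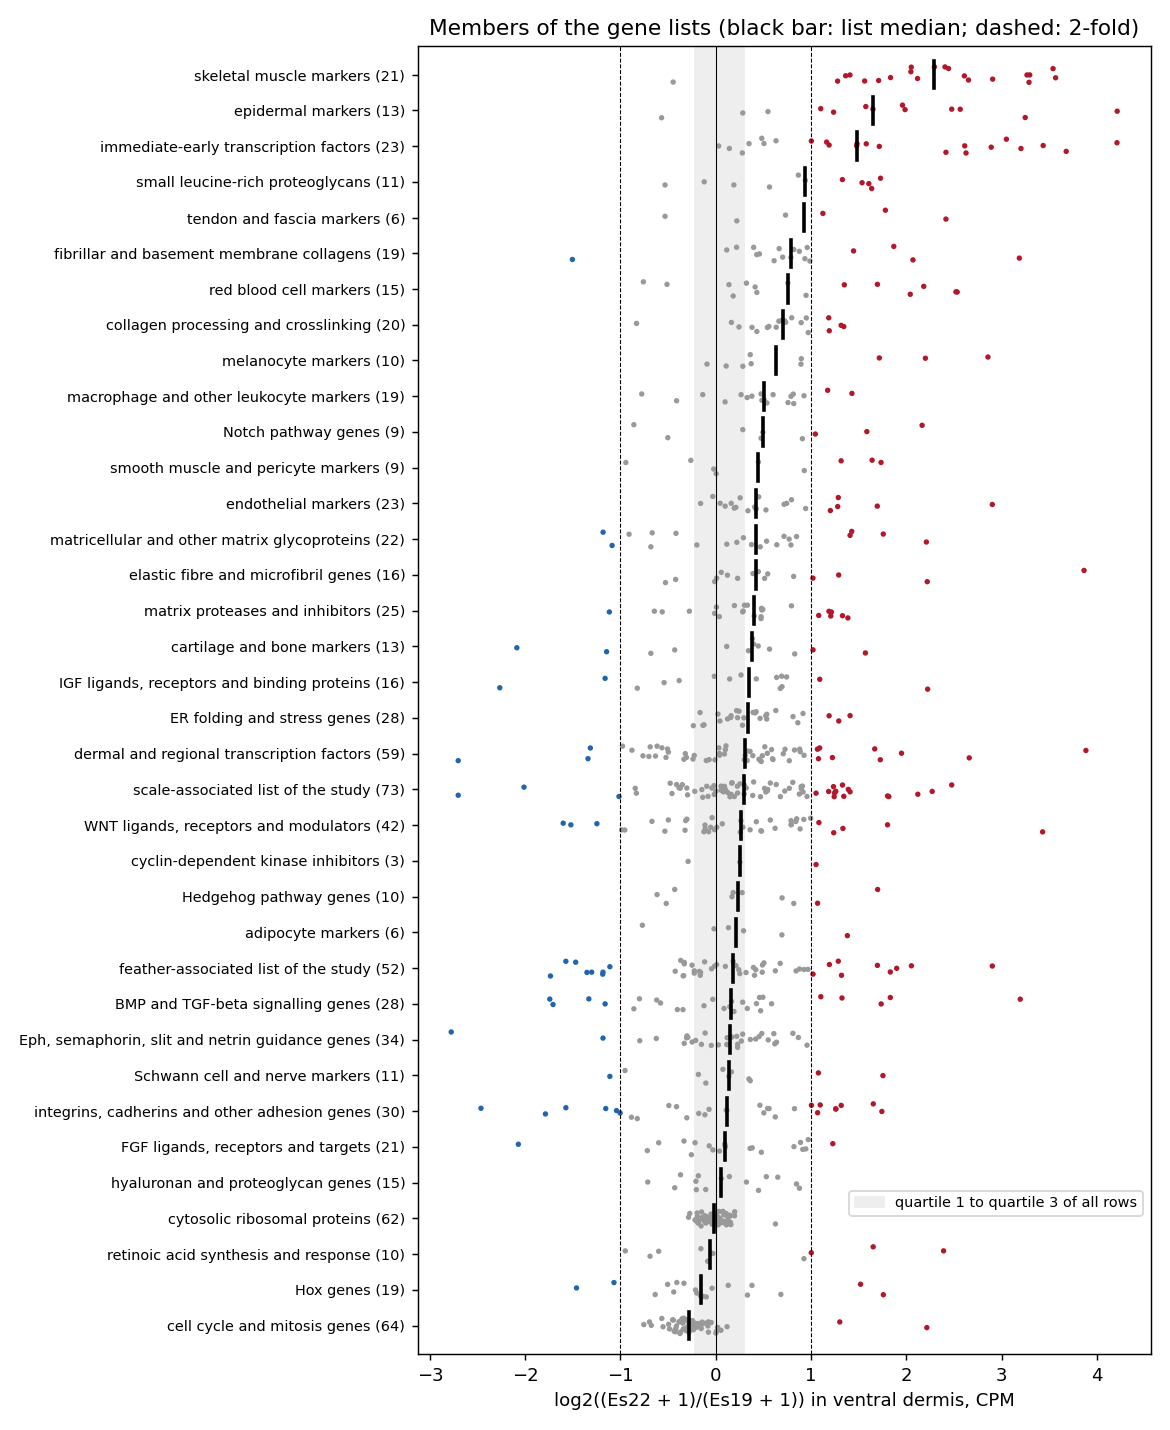
Log2((Es22 + 1)/(Es19 + 1)) in ventral dermis (horizontal axis) of each tested member of the 36 gene lists (rows, with the number tested), where red points are at least 2-fold higher at Es22, blue points at least 2-fold lower, the black bar is the list median and the grey band runs between the quartiles of all rows. The medians run from 2.30 for skeletal muscle markers at the top to -0.28 for cell cycle genes at the bottom, and the markers of epidermis (1.65) and the immediate-early genes (1.48) come next to the top.

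Genes of cell division sat below the bulk of the rows by small amounts. Of 64 members, 57 had log2 differences below 0 and the counting interval of the ratio lay below 1 in 45, with a median of -0.28 and a sum of 5653 CPM at Es22 and 6733 CPM at Es19. TOP2A, a topoisomerase of dividing cells, had 642 CPM at Es22 and 755 CPM at Es19. PCNA, the sliding clamp of replication, had 389 CPM at Es22 and 492 CPM at Es19. None of the 64 was 2-fold lower, and the 2 that were higher (3.12%, beside 5.59% of all rows) did not follow the rest. They were AURKB, a mitotic kinase, with 18.5 CPM at Es22, against 3.19 CPM at Es19, and the cyclin gene CCND3, with 86.7 CPM, against 34.5 CPM. Of the 3 inhibitors of cyclin-dependent kinases tested, CDKN2C was higher, with 5.16 CPM at Es22, against 1.97 CPM at Es19, while CDKN1A, with 3.51 CPM at Es22 and 2.78 CPM at Es19, and CDKN1B, with 36.6 CPM at Es22 and 44.99 CPM at Es19, were neither. None was higher without the TMM factors (0 of 3). The ribosomal protein genes stood at the middle of the table, with a median of -0.02 and 0 of 62 members 2-fold apart. Of 28 genes of folding and stress in the endoplasmic reticulum, 3 were higher and 0 lower, with a median of 0.34. That is 10.7% higher, beside 5.59% of all rows. The higher ones were the stress response genes ATF3, CHAC1 and PPP1R15A. The chaperone HSPA5 was neither, with 1089.5 CPM at Es22 and 896 CPM at Es19.

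The immediate-early genes, which cells switch on within minutes of many stimuli, had 16 of 23 members higher at Es22 and 0 lower. That is 69.6% higher, beside 5.59% of all rows. The list had a median of 1.48 and a sum of 3212 CPM at Es22 and 948 CPM at Es19. FOS had 315 CPM at Es22, against 23.7 CPM at Es19, a ratio of 13.3 (11.9 to 14.9, 95% interval), and FOSB had 84.8 CPM, against 6.92 CPM. EGR1 had 558 CPM at Es22, against 104 CPM at Es19, and the related EGR4 had 64.1 CPM, against 2.51 CPM. JUNB had 265 CPM at Es22, against 27.8 CPM at Es19, and the nuclear receptor gene NR4A1 had 319 CPM, against 37.6 CPM. Their partner JUN was neither, with 266 CPM at Es22 and 187 CPM at Es19.

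Markers of other cell types differed between the ventral libraries too, and their part in the results above was not tested. Skeletal muscle markers had 20 of 21 members higher (95.2%, beside 5.59% of all rows) and 0 lower. Their sum was 2023 CPM at Es22 and 323 CPM at Es19. CKM, the creatine kinase of muscle, had 147 CPM at Es22, against 11.5 CPM at Es19, a ratio of 12.8 (10.9 to 15.1, 95% interval). The myosin light chain gene MYL1 had 183 CPM at Es22, against 17.8 CPM at Es19, and the troponin gene TNNC2 had 217 CPM, against 21.2 CPM. The actin gene ACTC1 was the highest of these by CPM, with 609 CPM at Es22, against 114 CPM at Es19. The only member that was not higher was MYH6, and no member was at 0 reads in either library (0 and 0). Of the rows farthest above the line, CKM and MYOZ1 are members of this list. MSTN above, and CASQ1 and TPM1 among those rows, are genes of skeletal muscle outside it.

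Epidermal markers had 10 of 13 tested members higher (76.9%, beside 5.59% of all rows) and 0 lower, with a median of 1.65. Their sum was 702 CPM at Es22 and 394 CPM at Es19, most of it from JUP, a junction protein of many tissues. KRT14, a keratin of basal epidermis, had 64.2 CPM at Es22, against 2.51 CPM at Es19, a ratio of 25.6 (18.3 to 36.6, 95% interval). KRT15, another basal keratin, had 92.96 CPM at Es22, against 14.9 CPM at Es19, and E-cadherin (CDH1) had 30.6 CPM, against 4.68 CPM. The defining markers TP63 and KRT5, and KRT75, had no row under these symbols in the table analysed here. Both libraries of separated dermis thus held reads of epidermal genes, with more of them at Es22.

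Blood and vessel markers were partly higher and mostly neither. Red blood cell markers had 6 of 15 members higher (40%, beside 5.59% of all rows) and 0 lower. Their sum was 13386 CPM at Es22 and 3557 CPM at Es19. HBA1, a haemoglobin gene, had 9774 CPM at Es22, against 1701 CPM at Es19, and SLC4A1, the anion exchanger of the red cell membrane, had 426 CPM, against 72.6 CPM. Endothelial markers had 5 of 23 members higher (21.7%, beside 5.59% of all rows) and 0 lower, with a median of 0.42. TEK, the angiopoietin receptor, had 173 CPM at Es22, against 22.3 CPM at Es19, a ratio of 7.77 (6.90 to 8.78, 95% interval), and SOX18, a factor of endothelium, had 82.2 CPM, against 33.1 CPM. The vessel cadherin CDH5 was neither, with 77.4 CPM at Es22 and 64.6 CPM at Es19, so the endothelial genes were not raised by one common ratio. Of 19 leukocyte markers 2 were higher, the complement genes C1QC, with 14.9 CPM at Es22, against 4.89 CPM at Es19, and C1QB, with 8.46 CPM, against 3.19 CPM. That is 10.5% beside 5.59% of all rows, and 17 of the 19 were neither. The leukocyte marker with the highest CPM stood the other way, with the T cell gene CD3D at 98.7 CPM at Es22 and 169.8 CPM at Es19. Of the 19 leukocyte markers 16 lay above 0, with a median of 0.51. The sum of the list was 275 CPM at Es22 and 315 CPM at Es19. Most of it came from CD3D and CSF3R, which both had smaller values at Es22, so the sum does not speak for the other members. In that list 0 were higher and 1 was lower without the TMM factors.

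The pigment cell list had 3 of 10 members higher, namely DCT, TYRP1 and GPNMB. At Es19 they rested on 11 reads for DCT and 5 reads each for TYRP1 and GPNMB, all below 1 CPM. All 3 passed the filter only through their Es22 values, so the share higher in this list is weak. DCT, an enzyme of melanin synthesis, had 11.7 CPM at Es22, against 0.746 CPM at Es19, a ratio of 15.6 (8.41 to 32.2, 95% interval), while PMEL, a structural protein of the melanosome, had 118 CPM at Es22 and 96.6 CPM at Es19. Tendon markers had 3 of 6 higher (50%, beside 5.59% of all rows), namely TNMD, MKX and EGR1. EGR1 is also counted among the immediate-early genes. TNMD, a membrane protein of tendon and fascia, had 402 CPM at Es22, against 116 CPM at Es19. KERA stood the other way, with 96.2 CPM at Es22 and 139 CPM at Es19, but met neither side of the rule. Smooth muscle and pericyte markers had 3 of 9 higher, namely RGS5, TPM2 and ANGPT1, and 0 lower. ANGPT1 rested on 4 reads at Es19. The sum of the list was 403 CPM at Es22 and 459 CPM at Es19. In it ACTG2, a smooth muscle actin, had 97.9 CPM at Es22 and 189 CPM at Es19. Bone and cartilage markers were split, with 2 of 13 higher and 2 lower. ALPL, the alkaline phosphatase of bone, had 17.2 CPM at Es22, against 76.5 CPM at Es19, 4.44-fold (3.77 to 5.25, 95% interval) lower, and SP7, a factor of bone-forming cells, had 22.2 CPM, against 50.3 CPM. On the other side LECT1, a cartilage protein that restrains vessel growth, had 95.7 CPM at Es22, against 31.6 CPM at Es19, and RUNX3 had 49.9 CPM, against 24.1 CPM. Nerve and Schwann cell markers had 2 of 11 higher and 1 lower, with the myelin gene PMP22 at 346 CPM at Es22, against 163 CPM at Es19, and the neurofilament gene NEFM at 11.97 CPM, against 27.01 CPM. The adipocyte list had 1 of 6 higher, LPL, a lipase of fat and muscle, with 23.01 CPM at Es22, against 8.21 CPM at Es19. The shares higher were 30% of the pigment cell, 33.3% of the smooth muscle and 15.4% of the bone and cartilage markers. They were 18.2% of the nerve and 16.7% of the adipocyte markers, beside 5.59% of all rows. The shares lower were 15.4% of the bone and cartilage and 9.09% of the nerve markers, beside 1.74% of all rows. The medians were 0.45 for smooth muscle, 0.39 for bone and cartilage, 0.14 for nerve and 0.21 for adipocyte markers. Without the TMM factors all of these fell below 0, to -0.002, -0.05, -0.29 and -0.24, though above the -0.44 of all rows.

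The study asked whether genes that set chicken feather dermis and chicken scale dermis apart are used in alligator scales, and both of its lists were chosen on chicken tissue, not on these libraries. Of 86 feather-associated genes, 53 had a row and 52 passed the filter, of which 9 were higher, 8 lower and 35 neither at Es22, with a median of 0.19. The higher ones included FST and TEK above, of which TEK is also an endothelial marker, and TSPO2, also a red blood cell marker. SOX18, also an endothelial marker, and RUNX3, also a bone and cartilage marker, were higher as well. Another was GGT5, a gamma-glutamyl enzyme, with 102 CPM at Es22, against 26.7 CPM at Es19. The lower ones included LRRN1, a leucine-rich membrane protein, with 21.9 CPM at Es22, against 75.1 CPM at Es19, 3.43-fold (2.96 to 3.997, 95% interval) lower, and CPXM2, a carboxypeptidase-like protein, with 20.53 CPM, against 58.6 CPM. Also lower were NEFM, counted as a nerve marker too, RGMA, a guidance gene, and ALCAM, an adhesion gene. Of 135 scale-associated genes, 76 had a row and 73 passed the filter, of which 15 were higher, 3 lower and 55 neither, with a median of 0.30. The member farthest above 0 was CDH1, also counted as an epidermal marker, with 30.6 CPM at Es22, against 4.68 CPM at Es19. NFATC2, a transcription factor regulated by calcium, had 34.98 CPM at Es22, against 6.45 CPM at Es19, a ratio of 5.43 (4.31 to 6.89, 95% interval). PI16, a fibroblast protein, had 17.2 CPM, against 3.19 CPM. Also higher were HTRA3, ADAMTS3, CDH13, CHAC1, CDKN2C and SFRP4, which are counted in other lists above too. Of these, SFRP4 passed the filter only through Es22. PITX1, FAM101B and TMEM132E were the lower ones, with FAM101B at 16.4 CPM at Es22, against 69.2 CPM at Es19. The shares higher at Es22 were 17.3% of the feather-associated genes and 15 of 73 scale-associated genes, beside 5.59% of all rows. The shares lower were 15.4% of the feather-associated and 4.11% of the scale-associated genes, beside 1.74% of all rows. Neither the difference between the lists nor the part of other cell types in these shares was tested. Of the feather-associated genes 5 were higher and 8 lower without the TMM factors, and of the scale-associated genes 7 were higher and 5 lower.

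The dorsal dermis of the same stages, which shares no library with the ventral comparison, served to show where ventral dermis stood apart. Over the same 10152 rows, 787 rows (7.75%) of the dorsal libraries were 2-fold or more higher at Es22 and 243 rows (2.39%) were lower. Of the 568 rows higher in ventral dermis, 315 were higher in dorsal dermis too, which is 55.5% of the ventral and 40.0% of the dorsal rows. Of the 177 lower rows, 55 were lower in both, 31.1% of the ventral and 22.6% of the dorsal rows. In opposite directions by the 2-fold rule went 3 rows higher in ventral dermis and 9 rows lower in it. A further 250 higher and 113 lower rows were called in ventral dermis alone, which is a count of calls and not a test that the regions differ. With 1 library per region and stage, no such test exists for these data.

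Among the genes named above, COL1A1, COL1A2, SPARC, LUM, OGN, MFAP5, FBN1 and HBA1 were higher at Es22 in dorsal dermis as well. MFAP5 had 101 CPM at Es22 and 2.48 CPM at Es19 there, and LUM had 11123 CPM and 3917 CPM. BMP2 and BMP7 were lower in both regions, with BMP7 at 8.17 CPM at Es22 and 48.3 CPM at Es19 in dorsal dermis. The epidermal keratins were higher there too and reached larger values, with KRT14 at 306 CPM at Es22 and 2.48 CPM at Es19. The muscle markers had a median of 2.30 in ventral and 0.54 in dorsal dermis, where 9 of 21 members were higher, beside 7.75% of all rows. Their dorsal sum was 615 CPM at Es22 and 307 CPM at Es19.

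Several genes that were higher at Es22 in ventral dermis had their high dorsal value already at Es19. FOXD1 had 132 CPM at Es22 and 8.01 CPM at Es19 in ventral dermis, against 123 CPM and 179 CPM in dorsal dermis, so that the Es19 ventral library was the 1 low library of the 4. SOSTDC1 was the same in this respect, with 367 CPM at Es22 and 33.1 CPM at Es19 in ventral dermis, against 534 CPM and 466 CPM in dorsal dermis. RDH10 had 68.9 CPM at Es22 and 132 CPM at Es19 in dorsal dermis, and ALDH1A3 had 67.3 CPM and 115 CPM, so the Es22 value was the smaller one there, by less than 2-fold, and the larger one in ventral dermis. HEY2, with 51.01 CPM at Es22 and 98.4 CPM at Es19 in dorsal dermis, and HOXC10, with 33.6 CPM and 54.02 CPM, had the same order. For each of these genes the lowest of the 4 values was that of ventral dermis at Es19.

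The medians of 6 lists stood on opposite sides of 0 in the regions. Those of the FGF, guidance, transcription factor and feather-associated lists lay closer together, as with 0.19 in ventral and -0.17 in dorsal dermis for the feather-associated genes. The Notch and Hedgehog medians lay farther apart, at 0.50 in ventral and -0.57 in dorsal dermis for Notch and 0.23 and -0.57 for Hedgehog, beside 0.01 and -0.01 for all rows. Without the TMM factors the ventral medians of all these lists but Notch fell below 0, though above the -0.44 of all rows. The Hedgehog median was then -0.16 and the Notch median 0.05. The dorsal medians were not recomputed in that way, so their place without the factors is not given. The dorsal TMM factors were 0.787 at Es22 and 1.10 at Es19, so that leaving them out would lower dorsal log2 differences too. PTCH1 had 174 CPM at Es22 and 82.3 CPM at Es19 in ventral dermis, against 122 CPM and 238 CPM in dorsal dermis. Of the 10 Hedgehog members, 2 were higher and 0 lower in ventral dermis, while 1 was higher and 3 lower in dorsal dermis. Of the 9 Notch members 3 were higher and 0 lower in ventral dermis, while 0 were higher and 0 lower in dorsal dermis. Over all rows the shares were 5.59% higher and 1.74% lower in ventral dermis and 7.75% and 2.39% in dorsal dermis. GLI2 had 323 CPM at Es22 and 287 CPM at Es19 in ventral dermis, against 147 CPM and 431 CPM in dorsal dermis, and its highest value, like that of PTCH1, was that of dorsal dermis at Es19. JAG1, the Notch ligand, had 119.8 CPM at Es22 and 39.2 CPM at Es19 in ventral dermis, against 137 CPM and 166 CPM in dorsal dermis. TWIST1, with 194 CPM at Es22 and 371 CPM at Es19 in dorsal dermis, also had its highest value in the Es19 dorsal library.

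**Figure D4:**
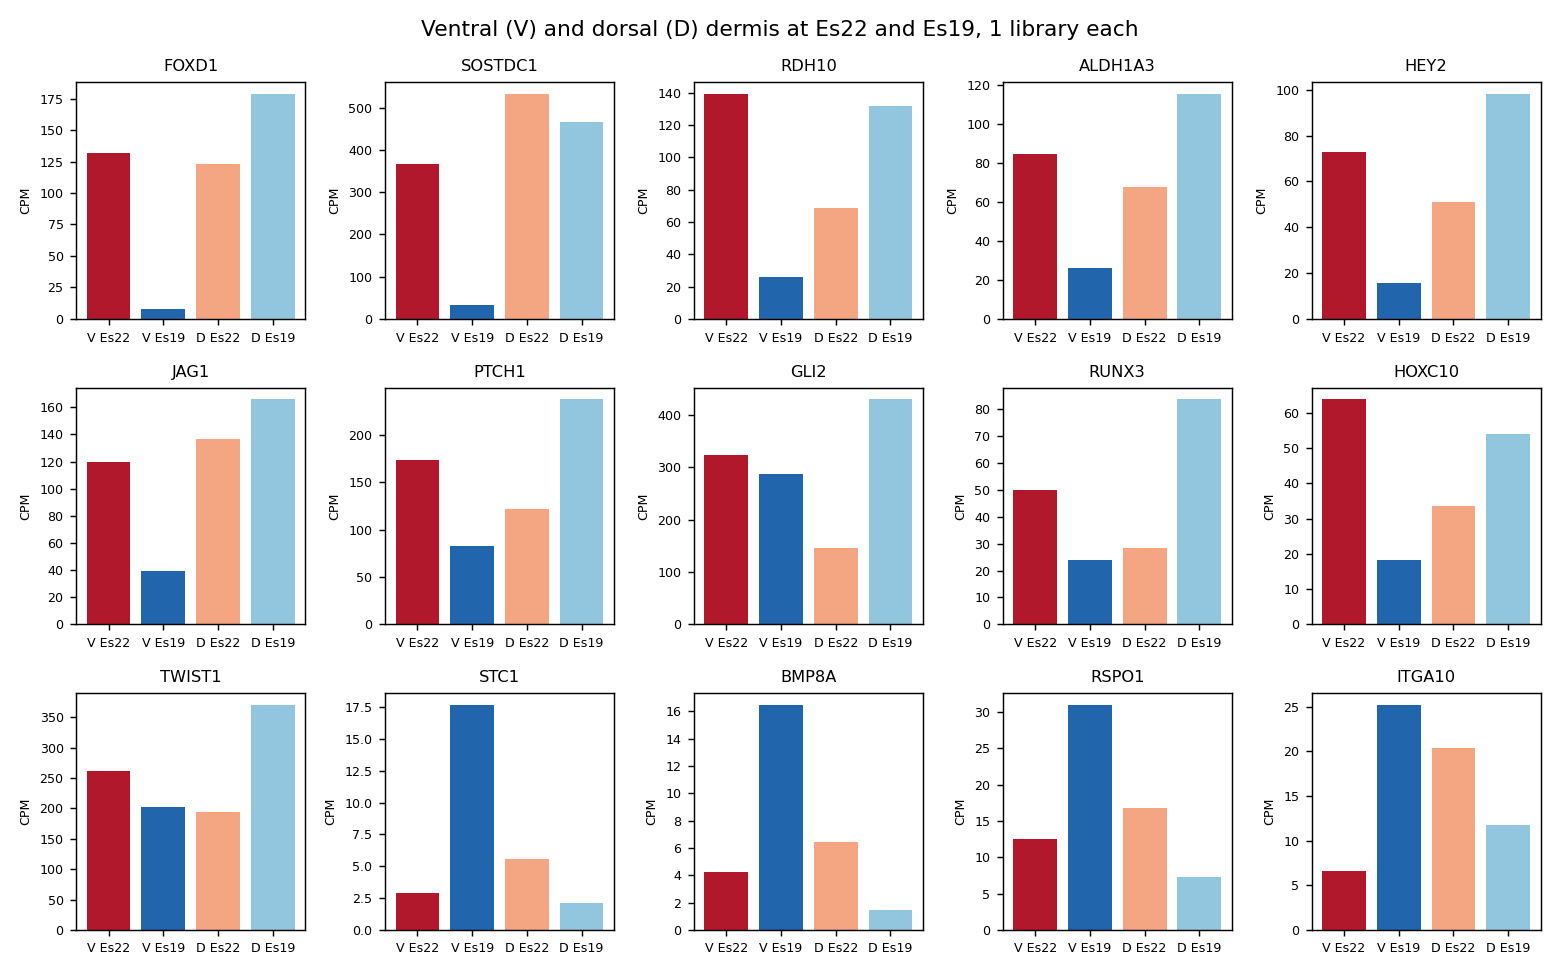
CPM (vertical axis from 0, a scale for each gene) of 15 genes in the 4 libraries, as bars for ventral dermis (V) at Es22 and Es19 and dorsal dermis (D) at Es22 and Es19, 1 library each and so without error bars. FOXD1, SOSTDC1, RDH10, ALDH1A3, HEY2, JAG1 and HOXC10 are lowest in ventral dermis at Es19, while STC1, BMP8A, RSPO1 and ITGA10 are highest there.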

How the data were processed

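RNA-seq was done on dermis of ventral and dorsal overlapping scales at Es22 and Es19, with 1 library in the labels for each, although the methods speak of replicates. The authors deposited 1 table of CPM values with TMM normalization, which is a normalized signal in the form the authors deposited. STAR is the aligner named in the methods, while the processing notes of the submitters name edgeR, HTSeq, Partek (version 3) and TopHat2 (version 2.1.0). No source used here gives the annotation version, and strand-specific counting is not stated. Rows are transcript records, 142 symbols have more than 1 row (287 rows), and such rows were summed for lists and named genes.

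Whole reads were recovered from the CPM worth of 1 read in each column, and 99.95% of the values of the Es22 ventral and 99.8% of the Es19 ventral library came out whole to 0.05. Ratios of CPM carry exact binomial 95% intervals on these reads. These and the floor of 3 reads cover counting error only, since reads without molecular identifiers are not independent molecules. Rows averaging 1 CPM or more over the ventral libraries were kept, and log2((Es22 + 1)/(Es19 + 1)) was called at 2-fold. The fold rule, the intervals and the edgeR fit were tested on simulated reads. Those reads held only the counting error that the intervals assume or, for edgeR, a fixed spread without a difference between regions. They therefore check the code and say nothing of error between embryos. Named are the 15 rows with a symbol farthest in each direction, for each of 36 lists up to 6 members called each way and the 4 with the highest mean CPM, and genes the paper names; other list members and rows named only by call or at the edges of a threshold were chosen after their values were seen. The members, lists and rules were chosen with earlier results of these data known. Alternatives were pseudocounts of 0.1 and 5, other scalings and filters, a 4-fold rule, the interval and the edgeR test. The tools were edgeR 4.0.16 in R 4.3.3, and scipy 1.17.1, matplotlib 3.10.9, numpy 2.4.6 and pandas 2.3.3 in Python 3.11.15. Sequences and coordinates are not given, and the chicken libraries were not analysed here. Some members of the lists are counted but not reported by name here.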

Additional observations from a re-analysis of the deposited data

Results flagged for a closer look

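A small set of named genes was at least 2-fold apart between Es22 and Es19 in both regions but in opposite directions, each on 1 library per region and stage, so that the difference between the regions was not tested. BMP8A, a BMP ligand, had a log2 difference of -1.74 in ventral dermis, with 4.23 CPM at Es22 and 16.5 CPM at Es19, against 1.59 in dorsal dermis, with 6.44 CPM at Es22 and 1.47 CPM at Es19. RSPO1, which strengthens WNT signals, had a log2 difference of -1.25 in ventral dermis, with 12.5 CPM and 31.01 CPM, against 1.11 in dorsal dermis, with 16.8 CPM and 7.28 CPM. STC1, a secreted glycoprotein, had a log2 difference of -2.27 in ventral dermis, with 2.89 CPM and 17.7 CPM, against 1.09 in dorsal dermis, with 5.57 CPM and 2.09 CPM. RUNX3, a runt-domain factor of cartilage, nerve and blood cells, went the other way, with a log2 difference of 1.02 in ventral dermis, 49.9 CPM and 24.1 CPM, against -1.53 in dorsal dermis, 28.3 CPM and 83.8 CPM. The first 3 of these genes were highest in the Es19 ventral library and RUNX3 was highest in the Es19 dorsal library. In ventral dermis the counting interval of the ratio reached below 2-fold for RUNX3 (1.80 to 2.38). In dorsal dermis it did so for RSPO1 (1.79 to 3.002) and for STC1 (1.66 to 4.38). The other counting intervals of these genes lay wholly beyond 2-fold. The opposite calls without the TMM factors are not given here.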

How the results depend on the processing

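The counts of 568 higher and 177 lower rows depend on the scaling, the pseudocount, the filter and the threshold. Without the TMM factors they were 297 and 621. With a pseudocount of 0.1 CPM 781 rows were higher and 288 lower, and with 5 CPM 301 and 82. A mean of at least 5 CPM left 399 and 116 of 7623 rows, the 4-fold rule 120 and 28, and the whole counting interval beyond 2-fold 403 and 107. Scaling to the upper quartile or to the median ratio, or no filter, gave 551 to 592 higher and 180 to 185 lower rows. An edgeR quasi-likelihood test of stage over all 4 libraries with region as the other term, which is not a test of ventral dermis alone, called 412 rows higher and 88 lower at an adjusted p of 0.05, of which 326 and 62 were among the rows called here, and 1367 and 743 at an unadjusted p of 0.05. The edgeR fit holds the ventral libraries that gave the calls, so this overlap is no independent check. It has no replicate of any region at any stage, so its error is not that between embryos. Of 270 named genes 176 were 2-fold apart, and without the TMM factors 131 of them remained so. Depth limits genes of a few reads, such as FGF3 and HOXC13. No paired analysis was possible because ventral dermis has 1 library at each stage, so that stage blocked by region exists only as that test over all 4 libraries, and for the same reason no replicate could be left out.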

Other observations

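Further values of genes already counted in the lists above are given here. Of the genes of the stress response of the endoplasmic reticulum, PPP1R15A, which lifts the block of translation, had 152 CPM at Es22, against 61.5 CPM at Es19, and CHAC1, a target of that response, had 8.15 CPM, against 2.44 CPM. ATF4, the transcription factor of the same response, had 877 CPM at Es22 and 464 CPM at Es19, a log2 difference of 0.92 that met neither side of the 2-fold rule. Among guidance genes, PLXNA1, a semaphorin co-receptor, had 233 CPM at Es22 and 149.7 CPM at Es19, and SLIT3, a ligand of Robo receptors, had 198 CPM and 169 CPM, so that the lower value of ROBO3 at Es22 had no counterpart in this ligand. MDK, a heparin-binding growth factor on the scale-associated list, had 749 CPM at Es22 and 1044 CPM at Es19 in ventral dermis, against 956 CPM and 489 CPM in dorsal dermis, and this was not tested.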
